A study of Mus musculus with 6 samples.

Results

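Endothelial cells, the cells that line blood vessels, were picked out of 6 single-cell libraries of mouse 4T1 breast tumours by the transcripts they carried. A barcode was kept with at least 200 detected genes and was called endothelial with at least 3 UMIs (unique molecular identifiers, 1 per captured transcript) summed over Plvap, Cdh5, Pecam1, Egfl7, Ptprb, Adgrf5 and Aqp1. It could hold at most 2 UMIs of the epithelial genes Krt8, Krt18 and Epcam, at most 1 of the macrophage genes C1qa, C1qb and C1qc, and at most 1 of the mural genes Rgs5, Myh11 and Des. This gave 133 of 6730 barcodes. The tumours grew from 4T1, a murine mammary carcinoma line, in Balb/c mice, and were sequenced by Drop-seq, a droplet method, in 3 FVIO-MHT and 3 PBS libraries. FVIO-MHT is magnetic hyperthermia: iron oxide particles (FVIO) injected at 0.1 mg per cm3 of tumour and 10 min in an alternating field of 365 kHz. All tumours were taken 24 hours later and dissociated with Liberase and DNase at 37 °C. The labels give all samples 1 treatment text, leave the field exposure of PBS tumours unstated, and do not tie replicates to separate mice. P-values therefore measure the spread between these libraries.

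Tumour vessels are lined by venous, capillary and arterial endothelium, which differ in the adhesion molecules, fat-handling proteins and signalling ligands they make. VE-cadherin (Cdh5) and claudin 5 (Cldn5) seal the junctions between these cells, and PLVAP forms the diaphragms of their fenestrae. Heat shock proteins are chaperones whose genes are switched on by heat shock factor when proteins misfold, and activated endothelium can also show leukocytes adhesion molecules, chemokines and antigen.

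The libraries differed in depth and, in places, from their labels. Endothelial UMIs numbered 914, 20630 and 57445 over FVIO-MHT replicates 1, 2 and 3, against 6745, 17558 and 7604 over the PBS replicates, with library medians between 457 and 812 UMIs per barcode. The 2 barcodes of FVIO-MHT replicate 1 met the rule through 3 Pecam1 UMIs each. They held 0 UMIs of the other 6 rule genes and 0 of 30 further endothelial genes, while the neutrophil genes S100a8 and S100a9 made up 17.04% and 16.04% of their UMIs. Their endothelial label is not borne out, and comparisons of genes used the 5 libraries with at least 10 endothelial barcodes. PBS replicates 2 and 3 shared 44 barcode sequences, against 0 to 6 for every other pair of libraries. Of these, 33 had at least 200 genes in both libraries, and the same barcode correlated with itself at a median r of 0.552, against 0.261 for different barcodes. A single shared barcode was endothelial in both, with 1146 and 1264 UMIs.

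Away from the rule genes, the barcodes carried a full endothelial programme. All 30 endothelial genes of a list that shares no gene with the rule were detected, and their summed level was 14397 and 17182 CPM (UMI counts scaled to the same total in each library) in FVIO-MHT replicates 2 and 3, and 19274, 12929 and 12493 CPM in PBS replicates 1, 2 and 3. All other barcodes of these libraries held between 699 and 1267 CPM. The mean log2 ratio of endothelial to other barcodes was 4.00 ± 0.48 (SD, n = 5 libraries). Since the rule chose these barcodes by their endothelial transcripts, the ratio is a description with no test. Barcodes just outside the rule, with 2 rule UMIs, held 5760 CPM of the list (38 barcodes), and those just inside, with 3, held 16071 CPM (24 barcodes). The gates removed 14 of 147 barcodes with enough endothelial UMIs, 8 of them for keratin or Epcam, 5 for mural genes and 1 for C1q.

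The genes that stood highest over the other barcodes were those of vessel lining. Gpihbp1, which anchors lipoprotein lipase to capillary walls, averaged 473 CPM against 0.970 CPM. Means here are over 5 libraries for endothelial barcodes and over all 6 for other barcodes. Among the 20 leading genes, 15 were not part of the rule, among them Robo4 (a vessel guidance receptor, 312 CPM against 1.47 CPM), Mmrn2 (a matrix protein of vessels, 434 CPM against 2.31 CPM), Cldn5 (490 CPM against 3.18 CPM) and Esam (a junction adhesion molecule, 684 CPM against 5.41 CPM). In all, 112 of 1170 ranked genes exceeded 10-fold. Ranked genes had at least 20 UMIs in endothelial barcodes and were seen there in at least 3 libraries, so the filter favours genes high there. Cldn5 was seen in 29 of 133 endothelial barcodes (21.8%, 95% Clopper-Pearson interval 15.1 to 29.8%) at a median depth of 645 UMIs. Tumour epithelial barcodes were defined by at least 3 keratin or Epcam UMIs and fewer than 3 UMIs of the rule genes. They also passed the C1q and mural gates. Among them Cldn5 was seen in 1 of 1626 (0.0615%) at 1362.5 UMIs. The limit on rule genes can lower endothelial genes there by construction. Intervals cover counting error only. The most abundant member of the capillary list was Fabp4, a fatty acid binding protein, seen in 99 of 133 endothelial barcodes (74.4%). It was not confined to them. Mural barcodes, with at least 2 UMIs of the mural genes and fewer than 3 of the rule genes, held it in 25 of 58 (43.1%). Tumour epithelial barcodes held it in 35 of 1626 (2.15%).

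**Figure D1:**
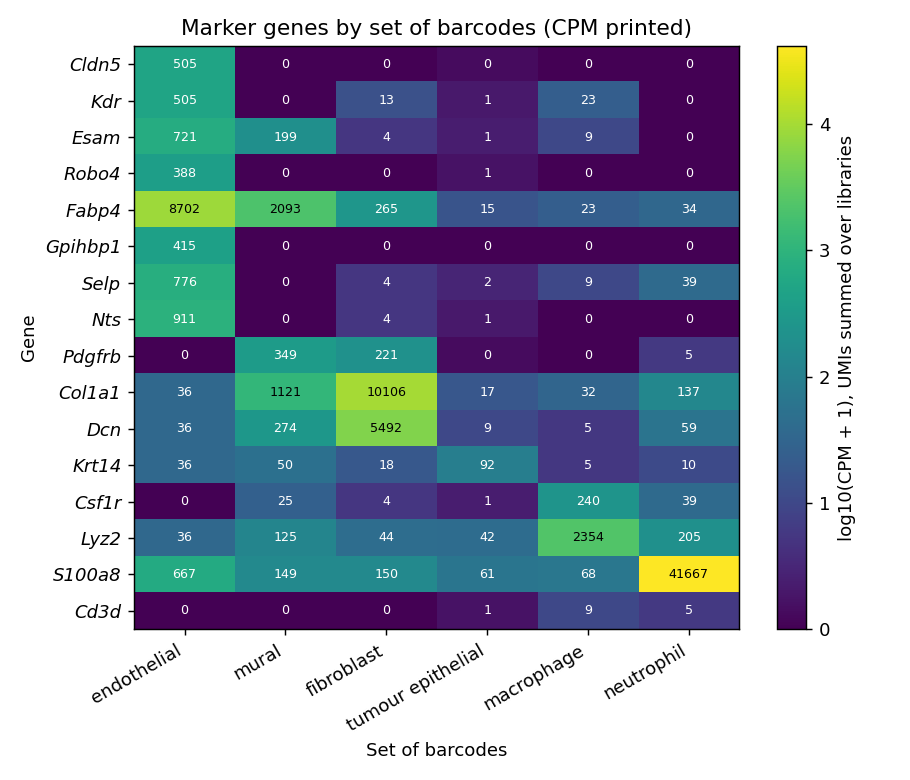
Level of 16 marker genes (rows) in 6 sets of barcodes (columns), with UMIs summed over all libraries. Colour is log10(CPM + 1) and the printed number is CPM. Cldn5, Robo4 and Gpihbp1 stand in the endothelial column, while Pdgfrb, Csf1r and Cd3d are at 0 there. Barcodes of the other columns were limited to fewer than 3 UMIs of the endothelial rule genes. The S100a8 value of that column includes FVIO-MHT replicate 1.

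Genes of other cells were counted over whole lists in all 133 endothelial barcodes, and the gates, which hold C1q, keratin and mural genes, limit some of them by construction. The macrophage list had 4 of 10 genes seen, with 33 UMIs, at 145 and 400 CPM in FVIO-MHT replicates 2 and 3 and at 148, 114 and 526 CPM in PBS replicates 1, 2 and 3; Csf1r, Adgre1 and Cd68, which are not gate genes, were at 0. The fibroblast list had 6 of 9 seen with 24 UMIs and the tumour epithelial list 6 of 8 with 35. The pericyte and smooth muscle list had 2 of 9 seen with 9 UMIs, and Pdgfrb, Acta2, Cspg4, Notch3 and Kcnj8, none of them gate genes, were at 0. The T and NK cell list had 2 of 7 seen with 3 UMIs and Cd3d at 0, the platelet list 2 of 6 with 8 UMIs, and the B cell list none of 4. All 68 UMIs of the erythroid list, 4 of 7 genes, lay in FVIO-MHT replicate 3 (1184 CPM, against 511 CPM in the other barcodes of that library). All 10 genes of the neutrophil list but Cxcr2 were seen, at 2084 and 313 CPM in FVIO-MHT replicates 2 and 3 and at 296.5, 57.0 and 657.5 CPM in PBS replicates 1, 2 and 3. The part of these transcripts in the results was not tested. The lymphatic endothelial list of 8 genes had 4 UMIs in all. Its 3 genes seen were Prox1, Lyve1 and Flt4, while Pdpn, Ccl21a, Mmrn1, Reln and Fgl2 were at 0.

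Promoters of 4 leading genes are shown because ETS factors, which carry much of endothelial transcription, bind the core AGGAAG. The sequences are the 250 bases before each start in RefSeq's GRCm38.p6 table, in the direction of the gene, and are the first 4 leading genes outside the rule with a single entry there. Capitals mark AGGAAG on either strand. A match is a description of the letters and not a binding site.
Tmem252: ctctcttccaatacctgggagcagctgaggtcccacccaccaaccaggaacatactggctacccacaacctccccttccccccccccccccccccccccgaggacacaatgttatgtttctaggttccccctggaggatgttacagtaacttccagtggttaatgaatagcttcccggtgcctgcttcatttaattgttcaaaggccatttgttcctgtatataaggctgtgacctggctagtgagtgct
Ushbp1: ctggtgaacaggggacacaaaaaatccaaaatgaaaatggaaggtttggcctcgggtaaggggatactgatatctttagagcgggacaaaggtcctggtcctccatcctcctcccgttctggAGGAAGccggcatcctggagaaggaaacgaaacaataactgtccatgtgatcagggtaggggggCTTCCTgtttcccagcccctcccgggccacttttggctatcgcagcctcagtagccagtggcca
Robo4: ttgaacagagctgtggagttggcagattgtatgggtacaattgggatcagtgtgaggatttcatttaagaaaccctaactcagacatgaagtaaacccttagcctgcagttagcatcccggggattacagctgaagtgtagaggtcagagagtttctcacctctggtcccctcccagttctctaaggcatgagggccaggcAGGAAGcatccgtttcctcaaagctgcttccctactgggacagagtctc
C1qtnf9: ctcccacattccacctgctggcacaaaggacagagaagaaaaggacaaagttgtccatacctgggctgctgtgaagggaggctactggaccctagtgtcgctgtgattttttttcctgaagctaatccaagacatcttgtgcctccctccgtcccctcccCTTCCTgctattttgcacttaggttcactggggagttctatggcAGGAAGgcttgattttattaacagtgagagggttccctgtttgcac
These lie at chr19:24673758-24674007 (plus strand), chr8:71395802-71396051 (minus), chr9:37401722-37401971 (plus) and chr14:60767884-60768133 (plus). Tmem252 held 0 matches, Robo4 held 1, and Ushbp1 and C1qtnf9 held 2 each. Of the 18 genes of the 30-gene endothelial list found in the table, 12 held the motif (66.7%), and it stood in 32.3% of all genes in the table.

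Barcodes with Selp and barcodes with Nts were separate sets, while both shared barcodes with capillary genes. The 4 genes used below were chosen after their values were seen, so what follows is a description. Selp, the adhesion molecule of activated venous endothelium, was found in 30 barcodes, which held 25.5% of all endothelial UMIs. They carried 13 of 16 UMIs of Ackr1 (the chemokine scavenger of venules) and 10 of 15 of Vwf (the clotting factor). Fabp4 was seen in 24 of these 30 barcodes and Gpihbp1 in 4, against 27 of all 133 for Gpihbp1. Nts, a neuropeptide gene, was found in 15 other barcodes with 0 Selp UMIs. These held 11.6% of endothelial UMIs but 23 of 44 UMIs of the chemokine Cxcl12 and 8 of 18 of Efnb2, an arterial ephrin. They also held 7 of 15 UMIs of Stmn2 and 4 of 11 of Sox17, both in the arterial list. Of Dll4, Fbln5, Sema3g, Hey1 and Gja4, also in that list, they held smaller shares. These were 0 of 11 Dll4 UMIs, 3 of 28 of Fbln5, 3 of 20 of Sema3g, and 1 of 5 each of Hey1 and Gja4. Fabp4 was seen in 11 of the 15 and Gpihbp1 in 3, and 2 of them held 17 of 19 Hba-a1 and 20 of 27 Hbb-bs UMIs, both haemoglobin genes.

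A further set carried interferon-induced genes. Ubd, a ubiquitin-like gene induced by interferon gamma, was found in 18 barcodes with 16.6% of endothelial UMIs. They held 50 of 52 UMIs of Cxcl9 and 67 of 102 of Cxcl10, which attract T cells, and 201 of 472 of B2m, the light chain of MHC class I. Gpihbp1 was found in 27 barcodes with 31.2% of the UMIs, and 451 of 965 Fabp4 UMIs and 44 of 95 Cd36 UMIs, both of fatty acid uptake, came from them. The Ubd and Gpihbp1 sets overlapped in 4 barcodes, and the Gpihbp1 barcodes held 42 of 52 Cxcl9, 58 of 102 Cxcl10 and 48 of 76 Ubd UMIs. These shares rest on few barcodes. Cxcl9 was seen in 5 of the 27 Gpihbp1 barcodes, Cxcl10 in 6 and Ubd in 4. In FVIO-MHT replicate 2 a single barcode held 30 of 38 Ubd UMIs, and a single barcode held 39 of 55 Cxcl10 UMIs. Tumour epithelial barcodes held Selp in 0.369%, Nts in 0.185%, Ubd in 3.38% and Gpihbp1 in 0 of 1626 barcodes, which allows a share of up to 0.185% with a UMI and does not limit cells that express the gene. The limit on rule genes in that set can lower these shares by construction.

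By library, Selp was present in 3 of 16 and 13 of 72 endothelial barcodes of FVIO-MHT replicates 2 and 3, and in 2 of 10, 8 of 23 and 4 of 10 of PBS replicates 1, 2 and 3. Nts was present in 2 and 9 barcodes with FVIO-MHT and 1, 2 and 1 with PBS. Ubd was present in 5 and 1 barcodes with FVIO-MHT, and in 4, 6 and 2 with PBS. Gpihbp1 was present in 9 and 11 with FVIO-MHT, and in 4, 3 and 0 with PBS. The shares with Ubd and Gpihbp1 differed more between the FVIO-MHT libraries than between the groups.

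**Figure D2:**
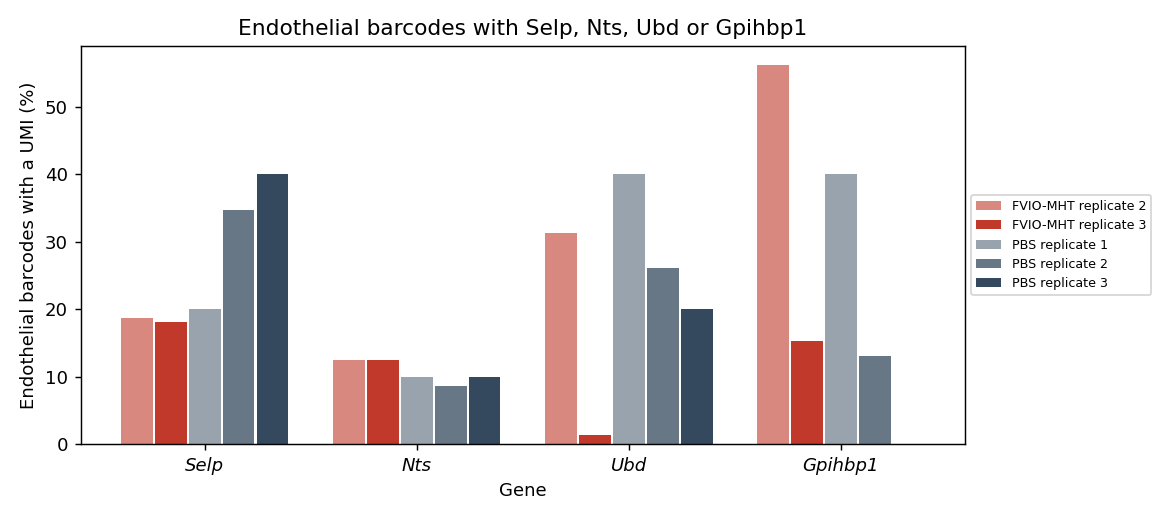
Share of endothelial barcodes with at least 1 UMI of Selp, Nts, Ubd or Gpihbp1, in percent, for the 2 FVIO-MHT libraries (red) and 3 PBS libraries (blue-grey) with at least 10 endothelial barcodes. Nts is the most even, with 2 of 16 and 9 of 72 barcodes in FVIO-MHT libraries, while Ubd was seen in 5 of 16 and 1 of 72.

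The share of endothelial barcodes did not separate the groups. It was 0.602% (2 of 332 barcodes), 1.53% (16 of 1049) and 3.10% (72 of 2325) in FVIO-MHT replicates 1, 2 and 3, and 0.926% (10 of 1080), 1.57% (23 of 1462) and 2.07% (10 of 482) in PBS replicates 1, 2 and 3. FVIO-MHT held both the lowest and the highest library. FVIO-MHT libraries averaged 1.74 ± 1.26% and PBS libraries 1.52 ± 0.576% (SD, n = 3 libraries each), a difference of 0.217 percentage points (two-sided exact permutation p = 0.9, where the smallest p this design allows is 0.1). Without FVIO-MHT replicate 3 the difference was -0.461 points, without PBS replicate 1 it was -0.0825 points, and at a minimum of 100 genes it was -0.260 points. With barcodes rich in S100a8 and S100a9 left out, FVIO-MHT replicate 1 held 0 of 150 and the difference was 0.0548 points. A share of dissociated barcodes does not tell vessel number from how well these cells were released.

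**Figure D3:**
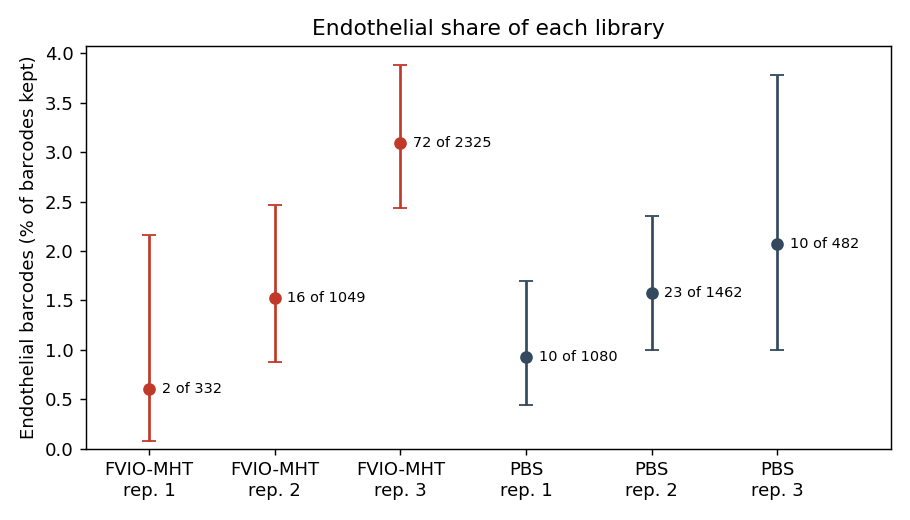
Endothelial share of kept barcodes in each library, in percent, FVIO-MHT in red and PBS in blue. Points are library values with 95% Clopper-Pearson intervals, and the counts stand beside them. The FVIO-MHT libraries span 0.602 to 3.10% and enclose all 3 PBS libraries.

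Between treatments, 2 heat shock genes were lower in endothelial barcodes after FVIO-MHT, and no gene was called higher. Hspa1b and Hspa1a encode the inducible chaperone HSP70. Hspa1b stood at 48.5 and 313 CPM in FVIO-MHT replicates 2 and 3, and at 1483, 4272 and 1578 CPM in PBS replicates 1, 2 and 3. Hspa1a stood at 291 and 122 CPM with FVIO-MHT, and at 593, 3759 and 2104 CPM with PBS. For both genes each FVIO-MHT library lay below each PBS library. In PBS replicate 1 this rests on few UMIs, 4 of Hspa1a and 10 of Hspa1b, 7 of the latter in 1 barcode. The log2 fold change was -3.50 ± 0.68 (SE) for Hspa1b and -3.54 ± 0.71 (SE) for Hspa1a, each with a Benjamini-Hochberg adjusted p of 0.0162 in edgeR's quasi-likelihood test. These were 2 of 947 genes tested (0.211%), while 60 had an unadjusted p under 0.05 (6.34%). Hspa1b was detected in 1 of 16 and 12 of 72 endothelial barcodes with FVIO-MHT, and in 2 of 10, 19 of 23 and 7 of 10 with PBS.

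The calls were lost without PBS replicate 2 or 3, the libraries that share barcodes. Without PBS replicate 2 the log2 fold change was -2.77 for Hspa1b and -2.80 for Hspa1a (adjusted p = 0.751 for both), and without PBS replicate 3 it was -3.77 (adjusted p = 0.895) and -3.61 (adjusted p = 0.973), with 0 genes called in either case (24 and 35 at an unadjusted p under 0.05). With both left out, PBS replicate 1 stood alone and was assumed to vary like the FVIO-MHT libraries, and the log2 fold change was -2.70 (adjusted p = 0.198) for Hspa1b and -1.58 (adjusted p = 0.799) for Hspa1a. With the shared barcodes removed from all libraries, and libraries of 5 or more members allowed, both genes were still called (adjusted p = 0.0463). Hspa1a also lost its call without FVIO-MHT replicate 3 (adjusted p = 0.125).

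Other barcodes showed the same direction, and the difference between the sets of barcodes was not called. They held Hspa1b at 241 and 133 CPM in FVIO-MHT replicates 2 and 3, and at 196, 3245 and 2972 CPM in PBS replicates 1, 2 and 3. PBS replicate 1 lay between the FVIO-MHT libraries there, whereas its endothelial barcodes did not. The treatment difference in endothelial barcodes less that in other barcodes was 0.06 ± 0.65 (SE, log2) for Hspa1b and 0.52 ± 0.72 for Hspa1a, with edgeR adjusted p of 0.988 and 0.964.

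**Figure D4:**
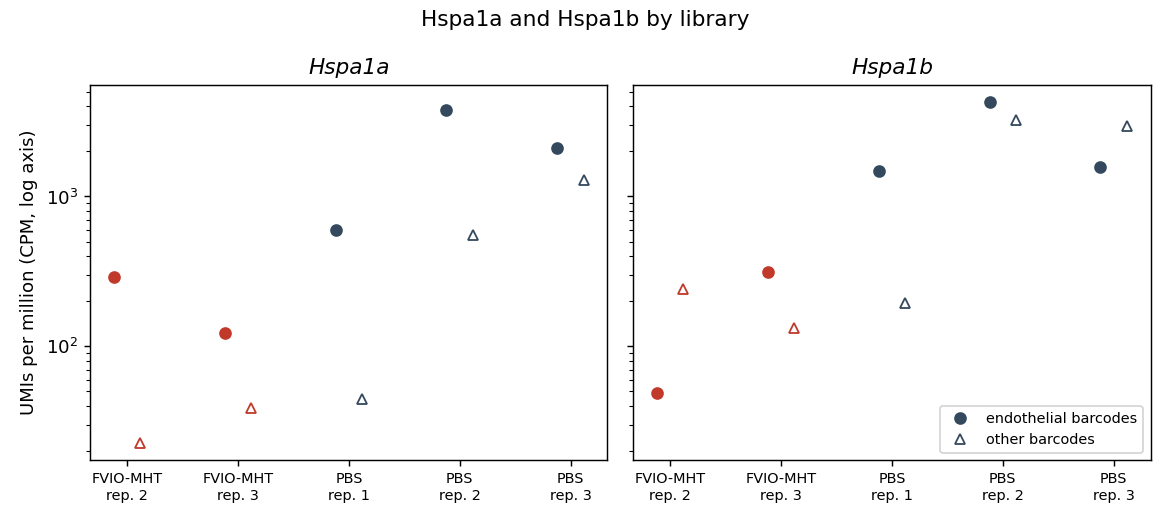
Hspa1a (left) and Hspa1b (right) in CPM on a log axis, for 2 FVIO-MHT (red) and 3 PBS libraries (blue). Filled circles are endothelial barcodes and open triangles all other barcodes. Among endothelial barcodes both FVIO-MHT libraries lie under all PBS libraries; among other barcodes PBS replicate 1 lies near them.

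The 2 genes are near-identical neighbours on the minus strand of chromosome 17 (GRCm38), Hspa1a at chr17:34969190-34972156 and Hspa1b at chr17:34956436-34959238, so reads can be split between them. Their promoters are shown because the pair moved together. Capitals mark the heat shock element core GAANNTTC, which reads the same on both strands.
Hspa1a: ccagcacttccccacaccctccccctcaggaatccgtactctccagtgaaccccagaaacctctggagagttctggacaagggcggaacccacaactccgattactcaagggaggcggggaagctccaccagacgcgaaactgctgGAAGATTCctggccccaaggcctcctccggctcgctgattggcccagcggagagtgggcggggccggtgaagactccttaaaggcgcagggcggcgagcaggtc
Hspa1b: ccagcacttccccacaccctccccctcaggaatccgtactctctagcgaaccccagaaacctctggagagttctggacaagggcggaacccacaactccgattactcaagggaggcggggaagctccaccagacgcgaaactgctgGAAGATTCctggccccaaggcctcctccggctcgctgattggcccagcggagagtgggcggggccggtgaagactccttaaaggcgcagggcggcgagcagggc
These are chr17:34972157-34972406 and chr17:34959239-34959488, minus strand, in RefSeq's GRCm38.p6 table. They were identical at 247 of 250 bases and each held the motif once, which was present in 7.73% of all genes in the table and in 6 of 13 heat shock genes found there.

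No other gene of the heat shock list passed the test. Of its 18 genes, which include the 2 called, 10 were measured well enough to test, 0 had a positive log2 fold change, 7 did not overlap between groups (9.71% of all genes tested did so on the lower side), and the median was -1.37, against 0.07 over all genes tested. With no filter on low counts the median was -0.78 over 17 genes. Hsp90aa1, a cytosolic chaperone, stood at 1066 and 1758 CPM with FVIO-MHT and at 2076, 5354 and 3682 CPM with PBS (log2 fold change -1.34 ± 0.52 SE, adjusted p = 0.740). Dnaja1, an HSP70 co-chaperone, stood at 873 and 940 CPM with FVIO-MHT and at 1334, 1879 and 4471 CPM with PBS. With PBS replicates 2 and 3 left out, the list's median was -0.47. The summed list was 7610 and 11280 CPM with FVIO-MHT and 14678, 26598 and 23014 CPM with PBS in endothelial barcodes, and 9134 and 15163 CPM against 15122, 29726 and 24352 CPM in other barcodes.

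**Figure D5:**
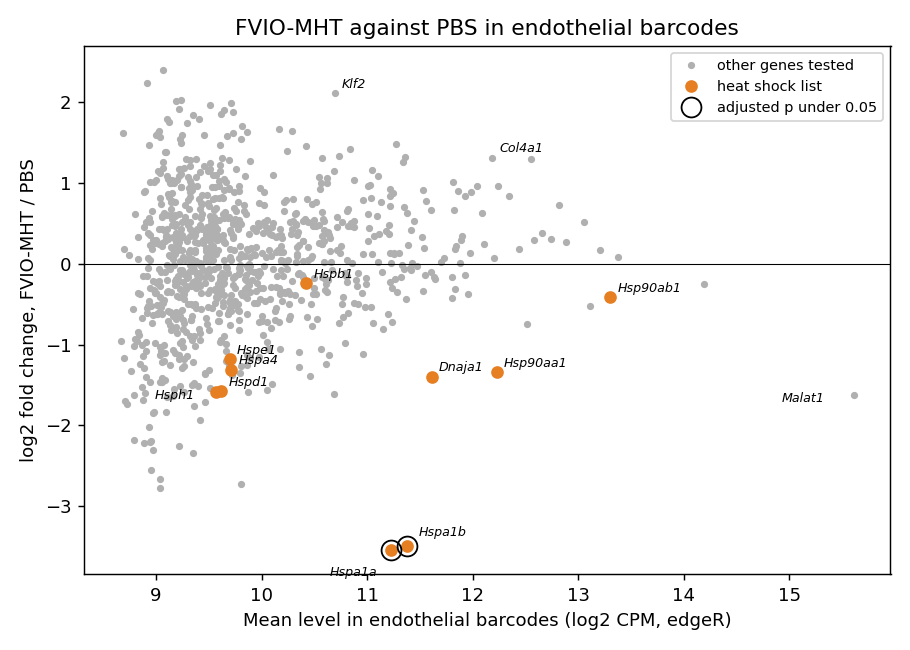
Log2 fold change, FVIO-MHT over PBS (vertical axis), against mean level (horizontal axis, log2 CPM) for 947 genes tested in endothelial barcodes. Orange points are the 10 tested heat shock genes, all below 0, and black rings mark Hspa1a and Hspa1b, the 2 genes with an adjusted p under 0.05.

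The make-up of the RNA differed between the same libraries. Malat1, a nuclear RNA, took 1.18% and 1.41% of the endothelial total in FVIO-MHT replicates 2 and 3, against 2.85%, 5.23% and 4.37% in PBS replicates 1, 2 and 3 (log2 fold change -1.62 ± 0.56 SE, adjusted p = 0.740). Ribosomal protein genes made up 5.88% and 6.84% with FVIO-MHT and 4.49%, 4.61% and 4.66% with PBS, and 43 of 49 tested had a positive log2 fold change, against 53.6% of all genes. In the other barcodes Malat1 was lower with FVIO-MHT as well, at 1.36% and 0.827%, against 2.27%, 3.25% and 2.53% with PBS. Ribosomal protein genes overlapped between groups there, at 6.10% and 8.58% with FVIO-MHT and 8.56%, 8.31% and 7.96% with PBS. The part of these differences in the heat shock result was not tested.

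No gene was called higher, and the 10 lowest p on that side had adjusted p of 0.740. Klf2, the transcription factor induced by flow, stood at 824 and 1985 CPM with FVIO-MHT and at 148, 570 and 132 CPM with PBS (log2 fold change 2.11 ± 0.65 SE). Col4a1, a collagen of the vessel basement membrane, stood at 3926 and 3934 CPM with FVIO-MHT and at 2224, 1424 and 1447 CPM with PBS (log2 fold change 1.31 ± 0.47 SE). For both genes the groups did not overlap, as for 10.6% of all genes on the higher side. Id3, S100a6, H3f3b, Tagln2, Ifrd1, 1810011O10Rik and Rps19 were also among these 10, with log2 fold changes from 1.26 to 1.86 and 1.97 for 1810011O10Rik. The groups overlapped for S100a6 and H3f3b, and without FVIO-MHT replicate 3 their log2 fold changes were 0.13 and 0.17. On the lower side the 10 lowest p were those of Hspa1b, Hspa1a, Malat1, Hsp90aa1 and Dnaja1, and of Gm26917, 2810474O19Rik, Shank3, Pkp4 and Gtpbp4, the last 5 from -1.93 to -2.77.

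Vessel gene lists showed 0 called genes in either direction apart from heat shock. Of 30 endothelial identity genes, 24 were tested, 15 had a positive and 9 a negative log2 fold change, and the median was 0.22, between -0.11 and 0.45 with 1 library left out. Flt1, a VEGF receptor, stood at 1163 and 2054 CPM with FVIO-MHT and at 3113, 1652 and 1315 CPM with PBS, and Kdr, the other main VEGF receptor, at 485 and 522 CPM with FVIO-MHT and at 1334, 342 and 132 CPM with PBS. The groups overlapped for both genes. The basement membrane list had a median of 0.43 over 10 tested genes, 7 of them positive, and the tip cell list 1.21 over 5, of which Col4a1, Col4a2 and Nid1 also sit in the basement membrane list. Flow-responsive genes had a median of 0.47 over 6 and immediate early genes 0.10 over 16, of which Dusp1, Jund, Zfp36, Klf6 and Klf2 were higher in both FVIO-MHT libraries than in any PBS library, as were 10.6% of all genes tested.

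Medians of the vessel zone and immune lists depended on single libraries. The medians were -0.07 for capillary genes (6 tested), -0.49 for venous (5), 0.48 for Notch (3), -0.19 for angiogenic receptors (5), 0.05 for junction (7), -0.21 for leukocyte adhesion and chemokines (9) and 0.09 for vasoactive and clotting genes (6). Among immune and stress lists they were -0.11 for interferon (6), -0.33 for MHC class I (7), 0.27 for endoplasmic reticulum stress (8), 0.47 for hypoxia and glycolysis (3), -0.17 for iron and haem handling (4), 0.68 for mesenchymal transition (3) and 0.30 for mitochondrially encoded genes (5). With 1 library left out, the sign turned for the capillary, angiogenic receptor, junction, leukocyte adhesion, vasoactive, interferon, MHC class I, iron and mitochondrial lists. The other lists had fewer than 3 tested genes.

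The treatment difference itself differed between endothelial and other barcodes for 6 of 947 genes (0.634%, edgeR's test of the interaction, adjusted p under 0.05), while 69 had an unadjusted p under 0.05 (7.29%). Fabp4, of the capillary list, stood in endothelial barcodes at 15608 and 4248 CPM with FVIO-MHT and at 13936, 13441 and 9074 CPM with PBS. In other barcodes it stood at 844 and 107 CPM with FVIO-MHT and at 24.0, 46.7 and 145 CPM with PBS. The endothelial log2 fold change was -0.25, and that of other barcodes was 2.75 ± 0.93 (SE), not called there (edgeR adjusted p = 0.815). The difference between them was -2.84 ± 0.50 (SE, adjusted p = 1.78e-04). A list of 6 adipocyte and muscle genes also varied in other barcodes. It stood there at 567 and 1.78 CPM in FVIO-MHT replicates 2 and 3, and at 1.14, 4.89 and 97.1 CPM in PBS replicates 1, 2 and 3. The part of such cells in the Fabp4 difference was not tested. Hes1, a Notch target, Jun and Id3, transcription regulators of early response and of growth, and the interferon-induced Rsad2 were also among the 6. None of the 6 was called within endothelial barcodes alone.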

How the data were processed

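Drop-seq counts of 6 libraries (3 FVIO-MHT, 3 PBS) were used. The deposited values are whole UMI counts. Alignment by the authors used STAR 2.7.2b and the mm10 build, per the submitters' processing notes. How reads were counted, with which annotation and strand setting, and how barcodes were chosen or doublets removed was not stated there. A matrix holds 5000 barcodes and 27998 rows, of which 65 repeat a symbol with identical counts and were dropped.

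Counts were summed per library over endothelial barcodes and over all other barcodes with at least 200 genes, and CPM were computed from these sums. FVIO-MHT was compared with PBS in edgeR 4.0.16 (R 4.3.3; quasi-likelihood test, TMM, filterByExpr with a minimum count of 5, Benjamini-Hochberg adjusted p under 0.05) over libraries with at least 10 endothelial barcodes. The interaction with the set of barcodes had library as a block. An SE is the log2 fold change divided by the square root of F. DESeq2 1.42.0 was an alternative. Shares were compared by exact permutation in Python 3.11.15, with Clopper-Pearson intervals. No doublet caller was run; leaving out barcodes above the 95th percentile of UMIs was an alternative.

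On simulated data with 200 changed genes, the group test found 50.6% of log2 changes of 2 and 90.5% of changes of 3, over 878.2 genes tested on average, and the interaction 17.5% and 62.1%. Named genes were the rule genes, the 20 highest ratios over other barcodes, the 10 lowest p in each direction, the 5 lowest p of the interaction and list members with most UMIs. A single gene that this rule names is not reported here. The members and gene lists were chosen with earlier results of these data known. Of 27998 identifiers, 27722 matched GENCODE (GRCm38), which gave gene positions counted from 1, and 391 of 395 list entries matched a symbol in the files. Of 20 leading genes outside the rule, 15 had a RefSeq promoter. Alternatives covered scaling, tool, filters, the endothelial rule, shared barcodes, each library left out and the replicate number as a block.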

Additional observations from a re-analysis of the deposited data

Results flagged for a closer look

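For 6 genes, the difference between FVIO-MHT and PBS in endothelial barcodes was itself different from that in the other barcodes of the same libraries, in edgeR's interaction test with Benjamini-Hochberg adjustment. For 5 of them, endothelial less other, the log2 differences were -2.84 for Fabp4 (adjusted p = 1.78e-04), 2.705 for Hes1, -2.69 for Rsad2, 1.82 for Jun and 2.63 for Id3, the last 4 with adjusted p between 0.0172 and 0.0249. Hes1 had a log2 fold change of 0.48 in endothelial and -2.22 in other barcodes, Jun 0.07 and -1.63, Id3 1.64 and -0.89, and Rsad2 -0.35 and 2.90. Rsad2 in endothelial barcodes stood at 1260 and 1114 CPM with FVIO-MHT and at 4744, 285 and 395 CPM with PBS, so PBS replicate 1 alone lay above the FVIO-MHT libraries. Over 19 alternatives the difference ranged from -4.24 to -2.34 for Fabp4, 1.91 to 3.13 for Hes1, 1.42 to 2.26 for Jun and -4.41 to 0.55 for Rsad2. The other barcodes are a mix of cell types that differs between libraries, and its part in these differences was not tested. With the shared barcodes left out, 0 genes were called (54 at an unadjusted p under 0.05), and DESeq2 called 0 (56 at an unadjusted p under 0.05). Groups of 2 FVIO-MHT and 3 PBS libraries are too small for a test of single outlying libraries.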

How the results depend on the processing

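The share of endothelial barcodes kept its direction under 13 of 16 alternatives. The replicate block is among these 13 and leaves the difference unchanged by construction. The difference was reversed at 100 genes (-0.260 points) and ranged from -0.461 to 0.786 points with 1 library left out. Deviations from the group mean correlated at r = -0.0865 for replicate number 2 and 0.0158 for number 3. With FVIO-MHT replicates 2 and 3 alone, their deviations mirror each other. These values therefore cannot tell whether the numbers pair the libraries. With the replicate block the share difference was 0.217 points (exact permutation p = 1) and 3 genes were called, Cxcl10 besides the main 2.

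Called genes between treatments numbered 0 at a minimum count of 10 (22 at an unadjusted p under 0.05), 0 with no filter (329), 0 with 5 endothelial UMIs (56) and 0 with that rule and 5 members (47), 6 without Aqp1 in the rule, 1 without Aqp1 and with 5 members, 1 with PBS replicates 2 and 3 left out (Gm26917), and 0 to 5 with 1 library left out. Hspa1b kept a log2 fold change between -5.52 and -2.70 and Hspa1a between -5.06 and -1.58 in all 20 alternatives, with adjusted p of 0.0519 and 0.0536 under the first 2 of these. Among the alternatives, here and for the interaction, a minimum of 5 members alone kept the same libraries and repeated the main fit. For Klf2 the log2 fold change was 2.60 without FVIO-MHT replicate 2 and 1.20 without FVIO-MHT replicate 3. Each of these fits left a single FVIO-MHT library, which was assumed to vary like the PBS libraries. Interaction calls numbered 1 with DESeq2 size factors, 0 with DESeq2, 0 at a minimum count of 10 (24), 2 with 5 endothelial UMIs, 1 without barcodes above the 95th percentile, 0 without Aqp1 and with 5 members, 0 with 5 endothelial UMIs and 5 members, 0 with shared barcodes left out, 0 with PBS replicates 2 and 3 left out, and 0 to 3 with 1 library left out. With 5 endothelial UMIs the Rsad2 interaction was reversed, at 0.55. Under the 5-UMI rule and the rule without Aqp1, PBS replicates 1 and 3 fell below 10 members, so PBS replicate 2 stood alone and was assumed to vary like the FVIO-MHT libraries, and rule and libraries changed together. With 5 members allowed the Rsad2 value was -2.74 under the 5-UMI rule. A minimum of 20 members left 1 library a group and could not be fitted.

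List medians that moved by more than the spread between libraries ranged, with 1 library left out, from -0.82 to 0.045 for angiogenic receptors, 0.36 to 0.75 for basement membrane, -0.32 to 0.83 for capillary, 0.23 to 0.80 for hypoxia glycolysis, 0.046 to 0.49 for immediate early, -0.36 to 0.64 for interferon, -0.28 to 0.18 for junction barrier, -1.12 to 0.39 for leukocyte adhesion chemokine, 0.44 to 1.20 for mesenchymal transition, -2.01 to 0.59 for MHC class i, -0.11 to 1.28 for mitochondrial encoded, 0.11 to 0.64 for notch, 0.37 to 0.86 for flow-responsive, 0.62 to 1.54 for tip cell and -1.19 to 0.56 for vasoactive coagulation. With PBS replicates 2 and 3 left out they were 0.91 for angiogenic receptors, -0.47 for heat shock, 0.82 for hypoxia glycolysis, 0.72 for immediate early, 4.03 for iron and haem, -0.47 for junction barrier, 1.40 for mesenchymal transition, 1.66 for mitochondrial encoded, 0.91 for notch, 0.97 for flow-responsive, 0.17 for tip cell and 0.46 for venous. With the replicate block they were -0.055 for endoplasmic reticulum stress, 0.57 for interferon, 0.37 for junction barrier, -0.65 for leukocyte adhesion chemokine and 0.019 for notch. The others were -0.78 for heat shock (no filter), -1.90 for heat shock (Aqp1 left out of the sum), -1.95 for heat shock (5 endothelial UMIs), which with 5 members allowed were -1.44 without Aqp1 and -1.35 with 5 endothelial UMIs, -0.10 for junction barrier (min.count 10) and -0.091 for junction barrier (shared barcodes left out, 5 members). The heat shock list was run under every setting, the other lists under the planned ones, shared barcodes, PBS replicates 2 and 3 and the block. The settings that left out shared barcodes, S100a8 and S100a9-high barcodes, the highest HSP70 member or PBS replicates 2 and 3 together, those that changed the rule along with a minimum of 5 members, the block on list medians and the extra settings of the heat shock list were chosen after seeing the data. The cause of these shifts was not tested. Depth limits the fit: 947 genes were testable.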
